A study of Homo sapiens with 8 samples.

Results

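The genes described here are 10 parts of the Notch signalling pathway: the receptors NOTCH1, NOTCH2 and NOTCH3, the ligands JAG1 and JAG2, and the target genes HES1, HES4, HEY1, HEYL and NRARP. They were taken from a table of read counts per gene by their symbols, so they are 10 of its 60623 genes, and 8 of the 10 had enough reads to be tested. All libraries came from 1 cell line, ARPE-19, an established human line derived from the retinal pigment epithelium. In the combination group, cells received 400 µg/mL fucoidan, a sulfated polysaccharide from the brown seaweed Fucus vesiculosus, and 200 µg/mL of a reference diesel exhaust particulate at the same time. The particulate group received 200 µg/mL of that material, which the labels call PM2.5, and the fucoidan group received 400 µg/mL fucoidan. The control group received an equal volume of the saline vehicle (PBS). Treatment lasted 24 h and began at about 80% confluence in DMEM/F12 medium with 10% serum. Fucoidan was dissolved in PBS, whereas the particulate was suspended in DMSO and diluted in PBS to a final DMSO content below 0.1%. No library received DMSO alone, so the particles and their solvent cannot be told apart. Each group had 2 biological replicates, which made 8 libraries of polyadenylated RNA.

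Notch receptors are membrane proteins that a ligand on a neighbouring cell activates. Binding exposes the receptor to cleavage by a metalloprotease and then by gamma-secretase, and the freed intracellular part enters the nucleus, where it joins the DNA-binding protein RBPJ and a Mastermind coactivator. The best known target genes encode HES and HEY proteins, which are repressors with a basic helix-loop-helix domain, and NRARP, a small ankyrin repeat protein that limits the signal. In the eye, Notch signalling is known for keeping retinal progenitors undifferentiated and for roles in the early pigment epithelium. HES1 is also known to be controlled by other pathways and by its own protein, so its RNA is not a measure of Notch activity alone.

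The sequences just upstream of HES1 and HES4 are shown because both genes encode repressors of the same family. Both also carry the core letters TGGGAA bound by RBPJ close to their start. HES1 passed the threshold on adjusted p in comparisons given further on and HES4 did not, but the 2 genes were not tested against each other. Both sequences are the 250 bases before the RefSeq start on build GRCh38.p14, written 5′ to 3′ on the strand of the gene, with TGGGAA in capitals. The HES1 window is chr3:194135898-194136147 on the plus strand, with 59.2% G and C. The HES4 window is chr1:1000098-1000347 on the minus strand, with 74.8% G and C.
HES1: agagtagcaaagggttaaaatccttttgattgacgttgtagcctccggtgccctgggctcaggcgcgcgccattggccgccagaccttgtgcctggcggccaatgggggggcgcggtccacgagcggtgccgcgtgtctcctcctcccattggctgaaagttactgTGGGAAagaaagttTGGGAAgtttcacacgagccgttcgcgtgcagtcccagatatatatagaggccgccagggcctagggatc
HES4: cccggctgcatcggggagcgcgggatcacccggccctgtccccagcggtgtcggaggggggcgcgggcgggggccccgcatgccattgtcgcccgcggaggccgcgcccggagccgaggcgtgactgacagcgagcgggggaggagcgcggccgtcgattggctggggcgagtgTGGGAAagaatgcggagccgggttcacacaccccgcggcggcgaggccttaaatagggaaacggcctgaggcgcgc
HES1 held TGGGAA at positions -84 and -70 from its start and HES4 at -76, each on the strand of the gene. Both strands were searched in the 9 members that the promoter table held, which was all but HEY1. HEYL had the letters at -178 on the opposite strand and at -99 on its own, and the windows of the other 6 members held none. The gene positions given further on come from another annotation with other starts. By those positions the HEYL window, at 39639644 to 39639893, lies inside its gene. The windows of HES1, HES4 and JAG2 reach into theirs. TGGGAA occurred in 20.8% of 35116 promoter windows of the same length and at least 2 copies in 2.9%. The longer form GTGGGAA, which contains the core, occurred once each in HES1, HES4 and HEYL and in 5.43% of windows. The N box CACNAG, the form bound by HES repressors, occurred 3 times in the HES1 window, at -165, -132 and -58, once in that of NOTCH3, and in 32% of all windows. The E box CACGTG was in none of the 9 windows and in 6.34% of all windows. A match of letters describes the window and does not show that a protein was bound there.

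The libraries held 12993565 to 17019284 counts. Of the pigment epithelium marker list, 11 of 14 genes were tested, and the summed level of the list was 1704 and 1898 CPM (TMM-scaled read counts relative to library size) in combination libraries, 2277 and 1772 CPM in particulate libraries, 3912 and 4061 CPM in fucoidan libraries and 3921 and 3631 CPM in control libraries. The keratins KRT8 and KRT18 made up 87.8% to 95.2% of that sum, and without them it was 124 and 134 CPM in the combination, 109 and 123 CPM with particulate, 405 and 384 CPM with fucoidan and 459 and 444 CPM in control. BEST1, a chloride channel, went the other way, with 3.93 and 2.90 CPM in the combination, 2.08 and 3.36 CPM with particulate, 1.33 and 0.958 CPM with fucoidan and 0.708 and 0.319 CPM in control. MERTK, a receptor for engulfing outer segments, was also higher in the 4 libraries with particulate, at 0.947 to 1.47 CPM, than in the 4 without, at 0.390 to 0.850 CPM. The part of these shifts in the Notch gene values was not tested. RPE65, the isomerase that defines mature pigment epithelium, had 2 reads in all 8 libraries, while the transcription factors OTX2 and MITF were present, at 31.3 to 96.6 CPM and 16.8 to 76.9 CPM. Summed endothelial markers, the cells in which Notch genes are often read, ran from 0.256 to 0.702 CPM with 0 of 5 genes tested, and macrophage markers from 2.87 to 5.33 CPM. Genes that differed at least 2-fold between replicates made up 11.3% in the combination, 3.55% with particulate, 1.55% with fucoidan and 1.61% in control. In bulk RNA, fewer cells of a type and less RNA per cell cannot be told apart.

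Per transcript length, NOTCH2 was the most abundant of the receptors, JAG1 exceeded JAG2, and HES1 and HES4 were the abundant targets. In control cells NOTCH2 had 111 and 95.4 TPM (the deposited length-scaled abundance), HES1 85.1 and 66.8 TPM and HES4 39.2 and 36.3 TPM. These 3 genes stood in that order in both control libraries with no overlap. Below them came JAG1 with 9.06 and 8.33 TPM. JAG2, with 5.99 and 4.32 TPM, and NOTCH1, with 6.31 and 3.96 TPM, overlapped each other. HEY1 had 1.38 and 1.69 TPM and NRARP 0.894 and 1.20 TPM, while HEYL, with 0.193 and 0.167 TPM, and NOTCH3, with 0.167 and 0.0241 TPM, were close to the limit of detection. NOTCH2 supplied 94.2% and 93.7% of the summed TPM of the 3 receptors in combination libraries, 91.7% and 93.4% with particulate, 96.5% and 95.9% with fucoidan and 94.5% and 96.0% in control.

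**Figure D1:**
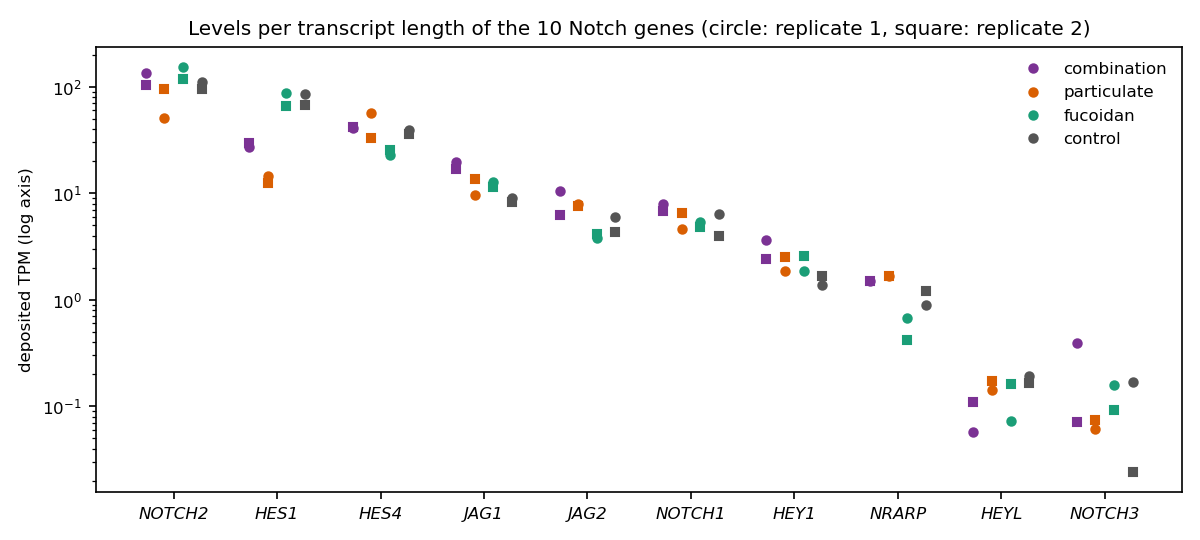
Deposited TPM of the 10 genes on a log axis, ordered by their mean over the 8 libraries, with colours for the 4 groups and 1 point per library. NOTCH2, HES1 and HES4 were the most abundant, and the HES1 points of the combination and particulate libraries lay below those of the fucoidan and control libraries.

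The order of the 2 HES genes was turned round in the libraries with particulate. HES1 had 26.9 and 29.4 TPM in combination libraries and 14.6 and 12.5 TPM in particulate libraries, and HES4 had 40.9 and 41.5 TPM in combination libraries and 56.6 and 33.1 TPM in particulate libraries. The ratio of HES1 to HES4 TPM was thus 0.657 and 0.709 in the combination, 0.258 and 0.378 with particulate, 3.81 and 2.59 with fucoidan and 2.17 and 1.84 in control. It was below 1 in all 4 libraries with particulate and above 1 in the 4 without it. The ratio of JAG1 to JAG2 TPM stayed above 1 in all 8 libraries, at 1.87 and 2.75 in the combination, 1.21 and 1.83 with particulate, 3.30 and 2.79 with fucoidan and 1.51 and 1.93 in control.

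NOTCH2, the main receptor RNA, lies on chromosome 1 at 119911553 to 120069626 (GRCh38, minus strand) and had 768 and 517 CPM in combination libraries, 304 and 491 CPM in particulate libraries, 791 and 639 CPM in fucoidan libraries and 594 and 536 CPM in control libraries. Both particulate libraries were below both control libraries, and the combination libraries overlapped the fucoidan libraries only in part of their range. NOTCH2 has near-identical partial copies, to which few reads were counted: NOTCH2NLA had 78, NOTCH2NLC 68, NOTCH2NLR 5, NOTCH2NLB 3 and NOTCH2P1 0 reads in all libraries, against 71717 for NOTCH2. No source used here states how reads with several alignments were handled, which leaves the split between the copies uncertain.

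NOTCH1, the receptor first linked to leukaemia (chromosome 9, 136494433 to 136545786, minus strand), had 24.1 and 18.3 CPM in combination libraries, 14.5 and 18.3 CPM in particulate libraries, 14.9 and 14.1 CPM in fucoidan libraries and 18.1 and 11.9 CPM in control libraries. Combination replicate 1 was its highest library, and the ranges of the particulate and fucoidan libraries lay inside or across that of control. NOTCH3, known from smooth muscle and pericytes (chromosome 19, 15159038 to 15200981, minus strand), had 16 and 3 reads in the combination, 3 and 3 with particulate, 5 and 4 with fucoidan and 6 and 1 in control. It did not pass the filter on low counts and was not tested in the fit of all 8 libraries.

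Of the ligands, JAG1 was higher in each library with a treatment than in either control library. JAG1, a transmembrane ligand (chromosome 20, 10637684 to 10673999, minus strand), had 52.4 and 39.7 CPM in combination libraries, 26.8 and 33.2 CPM in particulate libraries, 30.7 and 29.1 CPM in fucoidan libraries and 22.7 and 21.9 CPM in control libraries. The combination libraries were the highest, and the particulate and fucoidan libraries overlapped each other. JAG2, the related ligand (chromosome 14, 105140981 to 105168824, minus strand), had 19.3 and 9.92 CPM in combination libraries, 15.3 and 12.5 CPM in particulate libraries, 6.40 and 7.18 CPM in fucoidan libraries and 10.3 and 7.80 CPM in control libraries. Its 2 fucoidan libraries were the lowest of the 8, and its combination libraries spanned both particulate libraries and 1 control library.

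HES1 showed the clearest pattern of the target genes. It lies on chromosome 3 at 194136145 to 194138732 (plus strand), overlaps no annotated gene, and had 15.8 and 15.2 CPM in combination libraries, 8.99 and 6.72 CPM in particulate libraries, 47.0 and 37.0 CPM in fucoidan libraries and 47.3 and 38.8 CPM in control libraries. These values rest on 237 and 273 reads in the combination, 156 and 110 with particulate, 603 and 619 with fucoidan and 668 and 607 in control. The fucoidan and control libraries overlapped, the combination libraries lay well below both, and the particulate libraries lay below the combination. HES1 ranged over 2.79 log2 units across the 8 libraries, and the other 7 tested genes over 1.01 to 1.77. These log2 values carry a prior count of 2, which narrows the range of genes with few reads, such as NRARP.

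HES4, a HES repressor that mice lack (chromosome 1, 998962 to 1000172, minus strand), did not follow HES1. It had 13.1 and 11.6 CPM in combination libraries, 18.9 and 9.65 CPM in particulate libraries, 6.71 and 7.78 CPM in fucoidan libraries and 11.8 and 11.4 CPM in control libraries. One particulate replicate was above the control libraries and the other below them, and both fucoidan libraries were below all others. HEY1, a HEY repressor of the heart and vessels (chromosome 8, 79764010 to 79767863, minus strand), had 3.33 and 1.95 CPM in the combination, 1.79 and 2.14 CPM with particulate, 1.56 and 2.27 CPM with fucoidan and 1.20 and 1.53 CPM in control. All 6 treated libraries were above both control libraries, but on few reads and by a narrow margin. Fucoidan replicate 1 had 1.56 CPM on 20 reads and control replicate 2 had 1.53 CPM on 24 reads.

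NRARP, the feedback inhibitor (chromosome 9, 137300482 to 137302251, minus strand), had 1.13 and 1.00 CPM in combination libraries, 1.33 and 1.16 CPM in particulate libraries, 0.468 and 0.299 CPM in fucoidan libraries and 0.637 and 0.895 CPM in control libraries. The 4 libraries with particulate were the highest and the 2 with fucoidan alone the lowest, on 5 to 23 reads per library. HEYL, the third HEY repressor (chromosome 1, 39624153 to 39639945, minus strand), had 1 to 3 reads in every library and was not tested.

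**Figure D2:**
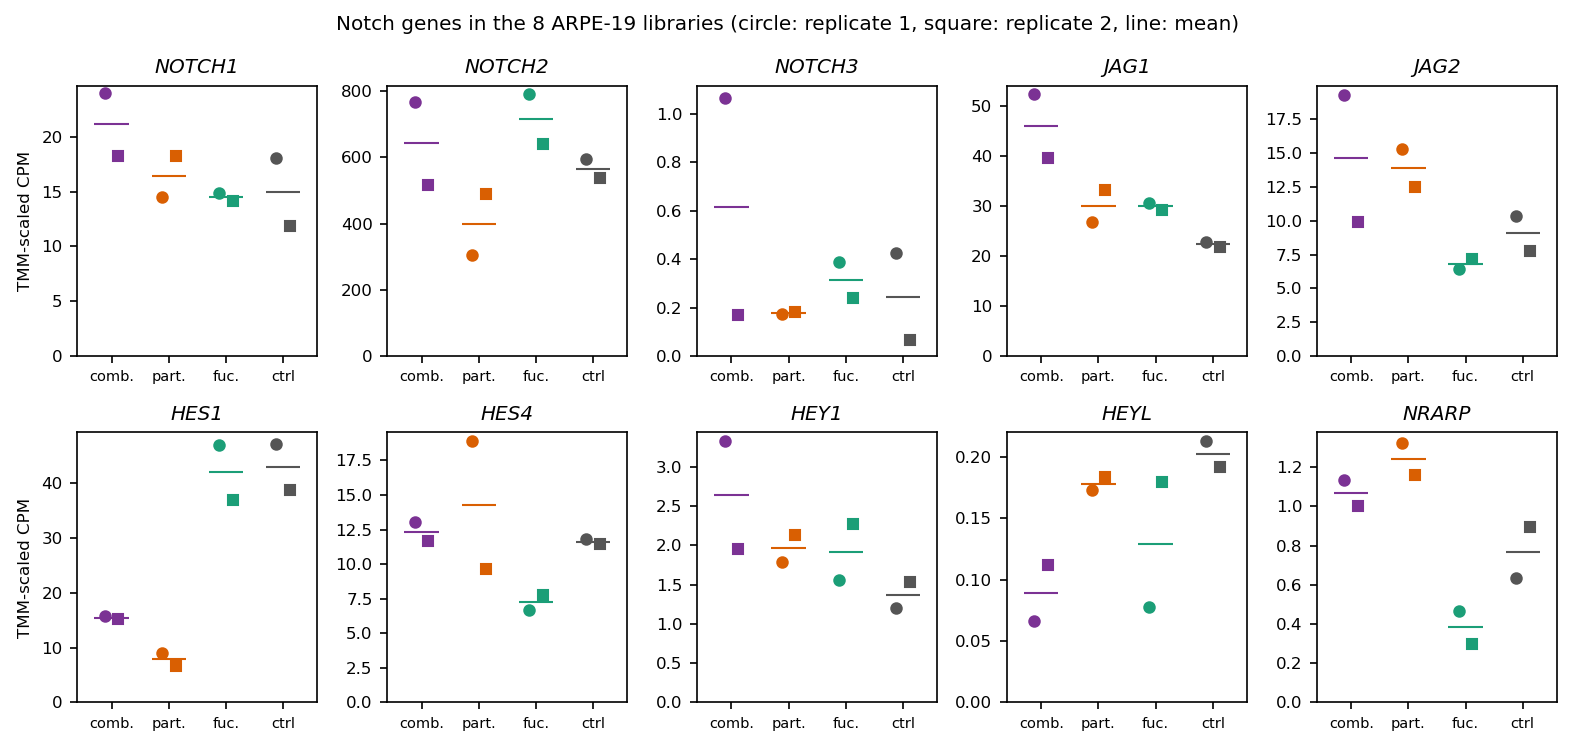
TMM-scaled CPM of the genes in the combination, particulate, fucoidan and control libraries, with 1 panel per gene, 1 point per library and a line at each group mean. HES1 lay at 6.72 to 15.8 CPM in the 4 libraries with particulate and at 37.0 to 47.3 CPM in the 4 without, and NRARP also separated these 4 and 4 libraries, with the particulate ones higher.

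Particulate was first set against control, for the difference made by the particles and their solvent in the absence of fucoidan. HES1 fell to 7.86 ± 1.61 CPM with particulate, against 43.0 ± 6.01 CPM in control (SD, n = 2 each). This was a log2 fold change of -2.45 ± 0.21 (SE), or 5.47-fold lower, with adjusted p = 9.61e-05 by edgeR's quasi-likelihood test with Benjamini-Hochberg adjustment over all genes. No other member passed an adjusted p under 0.05, so 1 of 8 tested members was called, lower, where 20.6% of the 15010 genes tested were called, 9.11% higher and 11.5% lower. HES1 stayed called in all 17 alternative fits, with log2 fold changes from -2.64 to -2.25 in the 8 fits that each left out 1 library.

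The receptors and ligands did not pass in the particulate comparison. NOTCH2 averaged 397 ± 132 CPM with particulate and 565 ± 40.8 CPM in control (log2 fold change -0.51 ± 0.25, adjusted p = 0.190), and NOTCH1 differed by 0.13 ± 0.24 (adjusted p = 0.741). JAG1 averaged 30.0 ± 4.55 CPM with particulate and 22.3 ± 0.616 CPM in control, a log2 fold change of 0.43 ± 0.19 with adjusted p = 0.137. JAG2 averaged 13.9 ± 1.95 CPM with particulate and 9.07 ± 1.80 CPM in control, a log2 fold change of 0.62 ± 0.31 with adjusted p = 0.186. For both ligands the 2 particulate libraries were above the 2 control libraries. The libraries of the 2 groups did not overlap in 6 of the 8 members, 4 higher and 2 lower, beside 65% of all tested genes. JAG1 and JAG2 were also called here when either combination library was left out of the shared spread. The share of all genes called in those fits is not given.

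Among the other targets, HES4 differed by 0.30 ± 0.28 (adjusted p = 0.503), HEY1 by 0.51 ± 0.38 (adjusted p = 0.378) and NRARP by 0.69 ± 0.39 (adjusted p = 0.243) on the log2 scale. The median log2 fold change of the 8 tested members was 0.36, beside 0.011 over all tested genes.

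**Figure D3:**
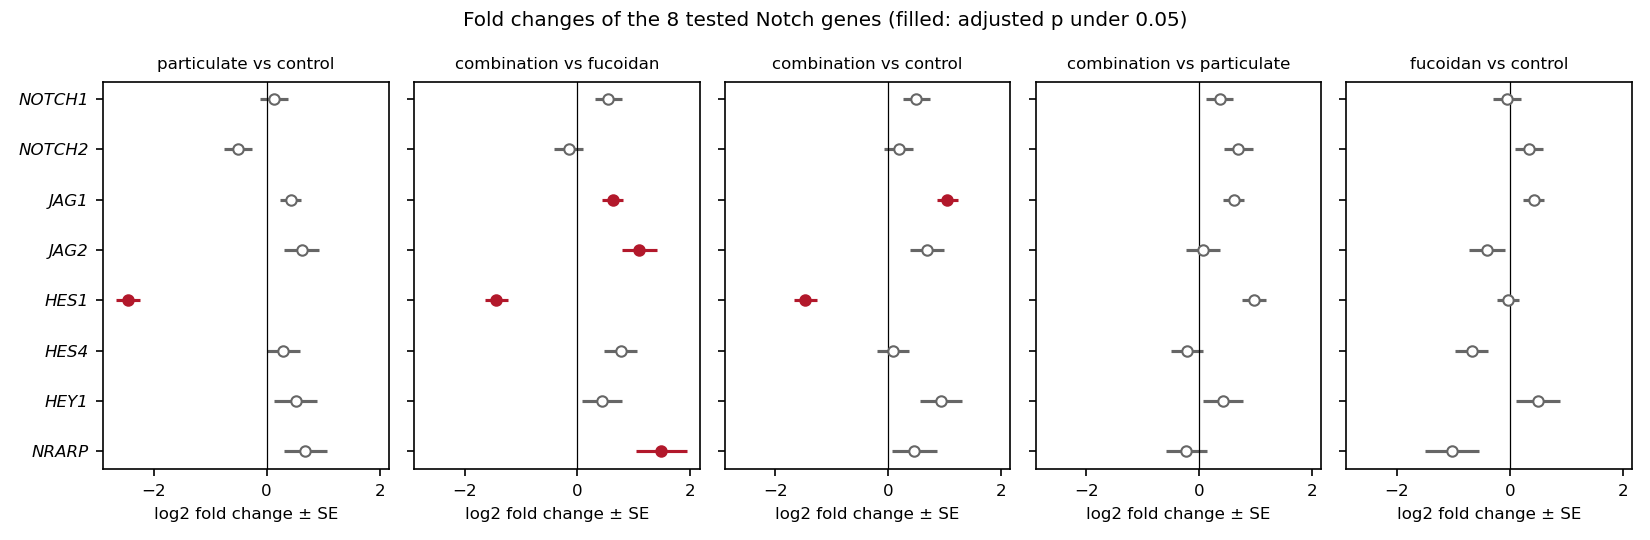
Log2 fold changes with their standard errors for the 8 tested genes in the 5 pairwise comparisons, filled where the adjusted p was under 0.05. HES1 is filled and left of 0 in the 3 comparisons of a group with particulate against a group without it, at -2.45, -1.44 and -1.47.

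The comparison of the combination with fucoidan asked what the particulate did in the presence of fucoidan. It shares no library with the comparison of particulate with control, although both come from a fit with 1 common spread. HES1 fell to 15.5 ± 0.410 CPM in the combination, against 42.0 ± 7.06 CPM with fucoidan, a log2 fold change of -1.44 ± 0.20, or 2.71-fold lower (adjusted p = 0.00177). JAG1, JAG2 and NRARP rose, so 4 of 8 members were called, 3 higher and 1 lower, where 20.7% of all tested genes were called, 10.2% higher and 10.6% lower. The median log2 fold change of the 8 members was 0.58. Libraries did not overlap in 6 of the 8, 5 higher and 1 lower, beside 62.9% of all tested genes.

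JAG1 averaged 46.1 ± 9.03 CPM in the combination and 29.9 ± 1.06 CPM with fucoidan (log2 fold change 0.62 ± 0.19, adjusted p = 0.0410). JAG2 averaged 14.6 ± 6.65 CPM in the combination and 6.79 ± 0.556 CPM with fucoidan (1.10 ± 0.31, adjusted p = 0.0347), and NRARP 1.07 ± 0.0918 CPM in the combination and 0.384 ± 0.119 CPM with fucoidan (1.49 ± 0.45, adjusted p = 0.0425). These 3 calls were close to the threshold: JAG1 and JAG2 each held in 7 of 17 alternative fits and NRARP in 6 of 17, with adjusted p up to 0.230, 0.186 and 0.310. HES1 alone was called when combination replicate 1, either fucoidan library or either control library was left out. HES4 differed by 0.77 ± 0.29 (adjusted p = 0.0922), NOTCH1 by 0.54 ± 0.24 (adjusted p = 0.136), HEY1 by 0.43 ± 0.36 (adjusted p = 0.408) and NOTCH2 by -0.15 ± 0.25 (adjusted p = 0.688) on the log2 scale.

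The combination was also set against control, which gives the joint difference of both agents. HES1 fell and JAG1 rose, 2 of 8 members, where 17% of all tested genes were called, 8.17% higher and 8.86% lower. This comparison shares its control libraries with the particulate comparison and its combination libraries with the fucoidan one, so the HES1 values are not separate. HES1 averaged 15.5 ± 0.410 CPM in the combination and 43.0 ± 6.01 CPM in control, a log2 fold change of -1.47 ± 0.20, or 2.77-fold lower (adjusted p = 0.00189). Libraries did not overlap in 5 of 8 members, 4 higher and 1 lower, beside 61.9% of all tested genes, and the median log2 fold change was 0.48.

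JAG1 averaged 46.1 ± 9.03 CPM in the combination and 22.3 ± 0.616 CPM in control, a log2 fold change of 1.05 ± 0.19, or 2.07-fold higher (adjusted p = 0.00656). The JAG1 call held in 15 of 17 alternative fits and was lost without control replicate 1 (adjusted p = 0.0801) or control replicate 2 (adjusted p = 0.0807), with adjusted p from 2.91e-05 to 0.0807 over all 17. HEY1, at 2.64 ± 0.977 CPM in the combination and 1.37 ± 0.233 CPM in control, differed by 0.93 ± 0.37 (adjusted p = 0.112), and JAG2 by 0.69 ± 0.31 (adjusted p = 0.146). Without combination replicate 2, JAG1, JAG2, HEY1 and HES1 were called. NOTCH3 was called there too, but it passed the filter only through combination replicate 1, the library where it is high, so its call carries no weight. NOTCH1 differed by 0.50 ± 0.24, NRARP by 0.46 ± 0.40, NOTCH2 by 0.19 ± 0.25 and HES4 by 0.09 ± 0.29 on the log2 scale, and none of the 4 was called.

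Whether fucoidan moved Notch genes in cells with particulate was tested by setting the combination against particulate. HES1 averaged 15.5 ± 0.410 CPM in the combination and 7.86 ± 1.61 CPM with particulate, 1.97-fold higher, and both combination libraries were above both particulate libraries. The log2 fold change was 0.98 ± 0.21 with an unadjusted p = 0.00108 and an adjusted p = 0.160 by edgeR, so HES1 was not called. By DESeq2 it was called (adjusted p = 0.00975), as it was without combination replicate 2 (adjusted p = 0.0148). It was called in 3 of 17 alternative fits, with adjusted p from 0.00157 to 0.670. None of the 8 members was called by edgeR, where 0.0866% of all tested genes, 13 in number, were (0.0799% higher and 0.00666% lower). At an unadjusted p under 0.05 by edgeR there were 3 of the 8 members, HES1, JAG1 and NOTCH2, and 2599 of all 15010 tested genes. DESeq2 called 1 member, HES1, and its share of all genes is not given.

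JAG1 averaged 46.1 ± 9.03 CPM in the combination and 30.0 ± 4.55 CPM with particulate, a log2 fold change of 0.62 ± 0.18 (adjusted p = 0.223). NOTCH2 averaged 643 ± 177 CPM in the combination and 397 ± 132 CPM with particulate (log2 difference 0.69 ± 0.25, adjusted p = 0.254). The other 5 tested members differed by -0.22 to 0.42 on the log2 scale, and the median of the 8 was 0.39. Libraries did not overlap in 5 of the 8, 4 higher and 1 lower, beside 41.3% of all tested genes. Without combination replicate 2 the fit called NOTCH2, JAG1 and HES1, beside NOTCH3 with the same limit as above, and without combination replicate 1 it called none.

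Fucoidan against control asked what fucoidan did by itself, and no member was called, as no gene of the 15010 was (0%). HES1 averaged 42.0 ± 7.06 CPM with fucoidan and 43.0 ± 6.01 CPM in control, a log2 fold change of -0.03 ± 0.20. At an unadjusted p under 0.05 by edgeR there were 2 of the 8 members, JAG1 (0.42 ± 0.19) and HES4 (-0.68 ± 0.30), and 662 of all 15010 tested genes. DESeq2 called 0 members. HES4 averaged 7.24 ± 0.759 CPM with fucoidan and 11.6 ± 0.272 CPM in control. When only the 4 libraries of the 2 groups were fitted, JAG1 (adjusted p = 0.0230) and HES4 (adjusted p = 0.00693) were called, as in none of the other 16 alternative fits. NRARP, on few reads, differed by -1.02 ± 0.47, JAG2 by -0.41 ± 0.32, HEY1 by 0.49 ± 0.38, NOTCH2 by 0.34 ± 0.25 and NOTCH1 by -0.05 ± 0.24, each with adjusted p = 0.999. Libraries did not overlap in 6 of the 8, 3 higher and 3 lower, beside 48% of all tested genes, and the median log2 fold change was -0.04.

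The design of 2 agents also allows a test of whether the difference made by fucoidan was the same with and without particulate. For HES1 that difference of differences was 1.01 ± 0.29 on the log2 scale, with unadjusted p = 0.00614 and adjusted p = 0.897. No member was called, nor was any gene (0%). At an unadjusted p under 0.05 by edgeR there was 1 of the 8 tested members, HES1, and 668 of all 15010 tested genes. The difference in HES1 made by fucoidan was thus not shown to depend on particulate.

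The replicates with particulate also differed in genes induced by low oxygen. In both the combination and particulate groups, the replicate with more RNA of those genes was also higher for NOTCH1, NOTCH2, JAG1 and HEY1. With particulate, HES1, HES4, JAG2 and NRARP went the other way, and in the combination all tested members were higher in replicate 1. Over all 15010 tested genes, the replicate differences of the 2 groups correlated at -0.22. The share of all genes with the order of the hypoxia genes is not given. The mean log2 CPM of 12 hypoxia genes was 8.86 and 6.08 in combination replicates 1 and 2, 6.55 and 7.70 in particulate replicates 1 and 2, 7.46 and 7.49 with fucoidan and 7.20 and 7.16 in control. NDRG1, a hypoxia-induced gene, had 2579 and 115 CPM in the combination and 222 and 769 CPM with particulate, and HK2, a hexokinase, had 672 and 52.1 CPM in the combination and 91.2 and 315 CPM with particulate. On the log2 scale, combination replicate 1 exceeded replicate 2 by 0.57 for NOTCH2, 0.39 for NOTCH1, 0.40 for JAG1, 0.95 for JAG2, 0.74 for HEY1, 0.16 for HES4, 0.16 for NRARP and 0.05 for HES1.

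HES1 had 15.8 and 15.2 CPM in combination replicates 1 and 2, and 8.99 and 6.72 CPM in particulate replicates 1 and 2. Particulate replicate 1, which had less hypoxia RNA, differed from replicate 2 by -0.69 for NOTCH2, -0.33 for NOTCH1, -0.31 for JAG1 and -0.24 for HEY1. It exceeded replicate 2 by 0.96 for HES4, 0.41 for HES1, 0.28 for JAG2 and 0.17 for NRARP, so JAG2 did not keep the order of the hypoxia genes there. The part of hypoxia genes in the values of NOTCH2, JAG1, HES1 and the other members was not tested.

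**Figure D4:**
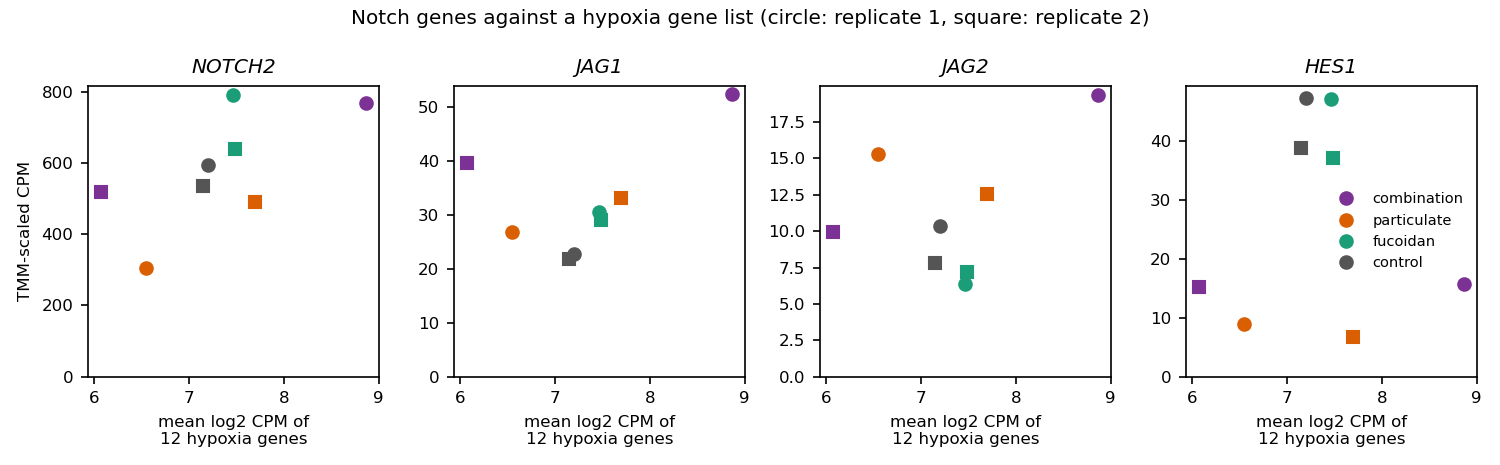
TMM-scaled CPM of NOTCH2, JAG1, JAG2 and HES1 in each library against the mean log2 CPM of 12 hypoxia genes in it, with 1 point per library. The combination libraries lie at both ends of the horizontal axis, at 6.08 and 8.86, and the particulate libraries at 6.55 and 7.70.

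The rest of the pathway was read through 71 genes in 9 lists, of which 58 were tested. With particulate against control, 4 were higher and 10 lower, 24.1% of those tested, close to the 20.6% of all genes, and the median log2 fold change of the 58 was 0.04. The higher ones include DLL1, which passed the filter on low counts only through libraries with particulate. In the combination against fucoidan, 4 of the 58 were higher and 9 lower (22.4%, beside 20.7% of all tested genes). In the combination against control, 2 were higher and 6 lower (13.8%, beside 17% of all tested genes). None was called with fucoidan against control, in the combination against particulate or in the difference of differences. The 9 tested genes of receptor turnover and inhibition, such as NUMB and ITCH, were not called in any comparison.

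The calls that held in all 17 alternative fits with particulate against control were those of 5 genes, all lower. PDGFRB, a growth factor receptor reported as a NOTCH3 target in smooth muscle, had 22.9 and 25.3 CPM with particulate and 255 and 216 CPM in control (log2 fold change -3.29 ± 0.20, adjusted p = 2.00e-05). ACTA2, smooth muscle actin and another reported target, had 12.9 and 10.9 CPM with particulate and 48.4 and 56.2 CPM in control (-2.14 ± 0.17, adjusted p = 6.61e-05). NEURL1B, a ubiquitin ligase for ligand endocytosis, had 3.23 and 3.97 CPM with particulate and 17.4 and 17.3 CPM in control (-2.27 ± 0.22, adjusted p = 0.000168).

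TLE1 and TLE4 encode Groucho corepressors, which HES proteins recruit to DNA. TLE1 had 36.5 and 32.4 CPM with particulate and 74.5 and 71.4 CPM in control (log2 fold change -1.08 ± 0.17, adjusted p = 0.00241). TLE4 had 15.1 and 15.5 CPM with particulate and 33.6 and 34.2 CPM in control (-1.15 ± 0.16, adjusted p = 0.00120). In these 5 genes each particulate library was below each control library, which adds no support because they were picked by their lower calls. The libraries of these 2 groups did not overlap in 65% of all tested genes. ACTA2 and NEURL1B overlap genes on the opposite strand that had 5863 (FAS) and 1348 reads in all, against 3617 and 1409 of their own, and no source used here says whether strand was used in counting, which leaves both genes uncertain.

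Other calls with particulate against control came from the cleavage machinery, the coactivators and the cell cycle. ADAM10, the metalloprotease of the first cut, fell by 0.79 on the log2 scale (SE 0.17, adjusted p = 0.0102), and NCSTN, the nicastrin subunit of gamma-secretase, fell by 0.69 (SE 0.14, adjusted p = 0.00945). PSEN2, a catalytic subunit of gamma-secretase, rose by 0.94 ± 0.19 (adjusted p = 0.00799). MAML2, a Mastermind coactivator, fell by 1.19 (SE 0.21, adjusted p = 0.00427). Each of these 4 calls was lost without at least 1 of the 8 libraries, and NCSTN overlaps COPA on the opposite strand.

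CCND1 and CCND3, cyclins of the G1 phase, rose by 0.99 ± 0.24 and 0.79 ± 0.16 on the log2 scale with particulate, and these calls were lost in 4 and 2 of the 8 fits without 1 library. DLL1, a Delta ligand, had 1.33 and 0.794 CPM with particulate and 0.354 and 0.0639 CPM in control (log2 fold change 2.35 ± 0.69, adjusted p = 0.0394). DLL1 passed the filter on low counts only through libraries with particulate, where it is high, so its call carries no weight. Its call was lost in 6 of the 8 fits without 1 library, and it overlaps FAM120B on the opposite strand. CDKN1A, an inhibitor of the cell cycle, and BHLHE41, a circadian repressor, fell by 0.62 and 1.20 with adjusted p = 0.0453 and 0.0438, and both calls were lost without single libraries, 6 of 8 for CDKN1A and 5 of 8 for BHLHE41.

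In the combination against fucoidan, PDGFRB, ACTA2, NEURL1B, TLE1, TLE4, MAML2, ADAM10 and NCSTN were called lower, as with particulate against control. CIR1, of the corepressor list, was called lower in this comparison only (-0.68, lost in 7 of 17 alternative fits). EPN2, of the ligand endocytosis list, and MYC, a reported target, were called higher in this comparison only (0.57 and 0.52, lost in 13 and 9 of 17). The calls of PDGFRB, ACTA2 and NEURL1B held in all 17 alternative fits, while those of MAML2 and NCSTN were each lost in 2, TLE1 in 6, TLE4 in 8 and ADAM10 in 11. PSEN2, CCND1, DLL1, CDKN1A and BHLHE41, called with particulate against control, were not called here, with adjusted p of 0.0599, 0.0777, 0.103, 0.861 and 0.0823, and the difference between the comparisons was not called for any of them. PDGFRB had 47.0 and 33.3 CPM in the combination and 289 and 267 CPM with fucoidan (log2 fold change -2.79 ± 0.20). NEURL1B had 6.33 and 8.30 CPM in the combination and 19.5 and 16.6 CPM with fucoidan (-1.30 ± 0.21, adjusted p = 0.00322). CCND3 was called higher, as with particulate against control (0.89 ± 0.17, adjusted p = 0.00611, lost in 1 of 17). POGLUT1, which adds glucose to the receptor, was called higher here (0.81 ± 0.20, adjusted p = 0.0207, lost in 7 of 17) and not with particulate against control (0.56 ± 0.20, adjusted p = 0.0715).

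In the combination against control, PDGFRB (log2 fold change -2.56), ACTA2 (-1.95), NEURL1B, TLE4, NCSTN and TLE1 were called lower. The first 2 calls held in all 17 alternative fits, and the others were lost in 2, 5, 6 and 11. TLE3, a corepressor, and RBPJ, the DNA-binding partner of the receptors, were called higher, and these calls were lost in 8 and 4. RBPJ had 239 and 143 CPM in the combination, 96.6 and 146 CPM with particulate, 118 and 105 CPM with fucoidan and 89.9 and 94.5 CPM in control. The log2 fold change of the combination against control was 1.05 ± 0.26 (adjusted p = 0.0246), and the call was lost in 3 of the 8 fits without 1 library, combination replicate 1 among them. As with NOTCH2 and JAG1, its higher replicate in the combination and with particulate was the one with more hypoxia RNA. The share of all genes with that order is not given, and a link to the hypoxia genes was not tested.

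**Figure D5:**
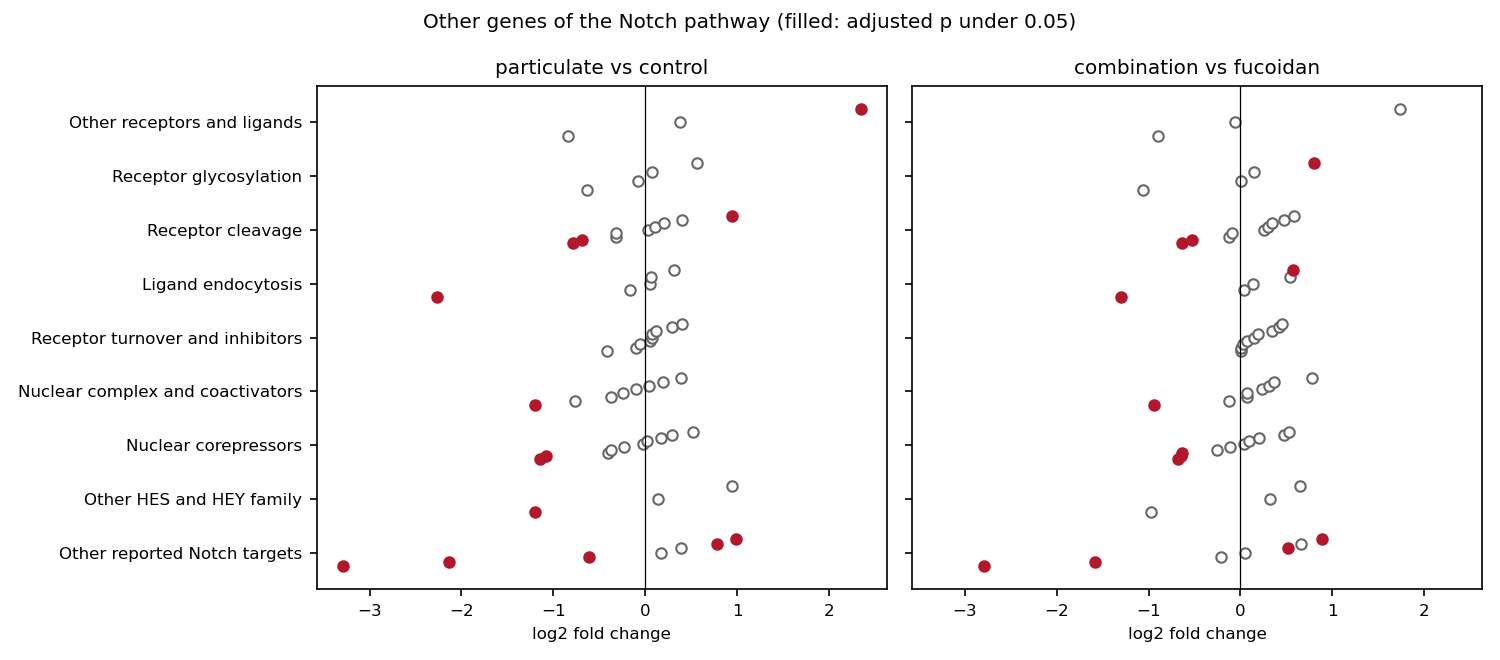
Log2 fold changes of the 58 tested genes of the other Notch pathway lists with particulate against control and in the combination against fucoidan, 1 point per gene, filled where the adjusted p was under 0.05. The filled points lie on both sides of 0. In particulate against control, 4 were higher and 10 lower (24.1%, beside 20.6% of all tested genes). In the combination against fucoidan, 4 were higher and 9 lower (22.4%, beside 20.7% of all tested genes). DLL1, among the higher ones in particulate against control, passed the filter only through libraries with particulate.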

How the data were processed

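Polyadenylated RNA of 8 ARPE-19 libraries was read with a stranded kit as paired reads, per the labels' protocols. The authors deposited raw read counts per gene, made with fastp 0.20.0, HISAT2 2.1.0 on GRCh38 and featureCounts of Subread 2.0.1 per the submitters' processing notes. TPM were deposited by the authors as well, per the file headers, and served to compare levels between genes and in alternative fits. No source used here states the annotation release, whether strand was used or how multiply aligned reads were counted.

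Genes were kept by filterByExpr with the 4 groups (15010 of 60623). Libraries were scaled by TMM and fitted with 1 mean per group in edgeR 4.0.16 under R 4.3.3 (quasi-likelihood test, 4 residual degrees of freedom, common dispersion 0.0288). The 6 comparisons were contrasts of that fit, with p-values adjusted by Benjamini-Hochberg over all tested genes and 0.05 as the threshold. The standard error is the absolute log2 change over the root of the F statistic, and CPM are TMM-scaled. Log2 CPM used a prior count of 2. DESeq2 1.42.0, limma 3.58.1 on log2 TPM (pseudocounts 0.5 and 0.1) or with voom quality weights, other scalings, no filter, only the groups compared, a replicate block and the omission of each library were alternatives. The code was tested on simulated data.

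All members were named, and from each pathway list up to 4 called genes per comparison by adjusted p; a selection is printed. For each member the 2 genes of nearest pattern were taken. The members and lists were chosen with earlier results of these data known. Gene positions come from GENCODE 29 and promoter sequences from RefSeq. With 2 libraries per group, p-values rest on a spread shared by all groups, although it differed between them.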

Additional observations from a re-analysis of the deposited data

How the results depend on the processing

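Over 17 alternatives, HES1 kept its calls in all 3 comparisons of a group with particulate against a group without, with adjusted p up to 0.00241 (particulate against control), 0.0264 (combination against fucoidan) and 0.0355 (combination against control). The ligand and NRARP calls lay near the threshold, and the low reads of NOTCH3, HEYL, NRARP and HEY1 limit what could be seen. For particulate against control, 2 members were called with no filter and 2 with only the groups compared, against 1 in the fit reported, and 1 to 3 without 1 library. For fucoidan against control, only the groups compared gave 2 (0 to 0 without 1 library). For the combination against particulate, DESeq2 gave 1, no filter 2, and fits without 1 library 0 to 4 (NOTCH3 in the 4). For the combination against fucoidan (4 reported), either TPM pseudocount gave 2, quality weights 2, no filter 5 (HES4 added), only the groups compared 1, and fits without 1 library 1 to 5. For the combination against control (2 reported), no filter gave 3 (JAG2 added, adjusted p = 0.0385) and fits without 1 library gave 1 to 5 (NOTCH3 in the 5), and for the difference of differences 0 to 0. Fitting only the groups compared was not run for the difference of differences. The share of all genes called in each of these alternative fits is not given, so the counts show only how the calls moved. The cause of these shifts was not tested.

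Replicate numbers did not pair the libraries: deviations of same-numbered libraries correlated between -0.25 and 0.075. With the replicate block, 2 members (JAG2 and HES1) were called in the combination against fucoidan in place of 4, with JAG1 at adjusted p = 0.0658 and NRARP at 0.0667.

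The fold changes that turned sign were never called. With fucoidan against control, both TPM fits gave HES1 0.011 and NOTCH1 0.025 and 0.029. JAG2 in the combination against particulate was -0.0089 with library totals and -0.025 with quality weights. Without 1 library, the log2 ranges that crossed 0 were, with particulate against control, -0.14 to 0.47 for NOTCH1 and -0.23 to 0.70 for HES4, and, with fucoidan against control, -0.32 to 0.29 for NOTCH1 and -0.22 to 0.13 for HES1. In the combination against particulate they were -0.62 to 0.34 for HES4, -0.49 to 0.47 for JAG2 and -0.0058 to 0.76 for HEY1. NOTCH2 ran from -0.46 to 0.099 in the combination against fucoidan and from -0.12 to 0.44 in the combination against control. In the difference of differences the ranges were -0.51 to 0.26 for HEY1, -0.022 to 0.37 for JAG1 and -0.080 to 0.88 for JAG2.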

Other observations

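The genes whose pattern over the 8 libraries was most like that of a Notch gene were found by the root mean square difference of log2 CPM, each gene centred on its own mean, among tested genes averaging 5 CPM or more over all libraries. The values describe these libraries, and no shared function or control is implied. For HES1 they were MMP24, a membrane metalloprotease, at 0.191 log2 units and BTG2, an antiproliferative gene induced by p53, at 0.199. BTG2 had 17.2 and 21.8 CPM in combination libraries, 10.6 and 10.0 CPM in particulate libraries, 51.8 and 49.9 CPM in fucoidan libraries and 45.8 and 43.9 CPM in control libraries. MMP24 had 36.1 and 28.5 CPM in combination libraries, 18.2 and 19.1 CPM in particulate libraries, 94.1 and 82.2 CPM in fucoidan libraries and 87.3 and 73.9 CPM in control libraries. Both had the HES1 order of particulate below combination below the other groups, which follows from their being picked by that pattern.

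Members and pathway list genes were few among the 10919 or 10920 candidates, so their absence from the nearest genes carries no weight. The nearest genes of the other members included none of them. They were JAZF1 at 0.069 and APBB2 at 0.089 log2 units for NOTCH2, SAMD4B at 0.093 and LSM12P1 at 0.103 for NOTCH1, ZNF721 at 0.070 and CDS1 at 0.073 for JAG1, and RILPL1 at 0.111 and DNTTIP1 at 0.131 for JAG2. For the targets they were MAPK11 at 0.135 and KIFC2 at 0.157 for HES4, RAMAC at 0.100 and RDH11 at 0.139 for HEY1, and NAT8L at 0.168 and DGKQ at 0.213 for NRARP.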
